A study of Homo sapiens with 4 samples.

Results

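The 32 genes described here make cholesterol and fatty acids or control and move these lipids. They were taken by symbol from a fixed list, and all 32 had 1 entry among the 22798 gene symbols counted on their own strand. Nascent RNA was measured in Karpas 299, an established human line of ALK-positive anaplastic large cell lymphoma, by Bru-seq, in which RNA made during a pulse of bromouridine is captured and sequenced. There were 4 libraries with 1 per condition: cells given the solvent DMSO, cells given SM-164 (a bivalent mimetic of Smac that antagonises IAP proteins), cells on a layer of CHO cells, and cells on CHO cells carrying the CD30 ligand CD30L. All treatments lasted 3 h and the label was present for the final 30 min. CHO is a hamster ovary line, and the lymphoma cells were collected from it by pipetting. The labels give F-12 nutrient medium for the CHO lines and RPMI 1640 for Karpas 299. The medium used during co-culture and the dose of SM-164 are not given in the sources used here.

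Cholesterol is built from acetyl-CoA through mevalonate, farnesyl pyrophosphate, squalene and lanosterol, and fatty acids are built from the same precursor by a separate set of enzymes. Both sets are controlled by SREBP transcription factors, which are held in the endoplasmic reticulum with their escort SCAP while INSIG proteins and sterols retain them. When sterols are scarce, SCAP carries SREBPs to the Golgi, where they are cleaved to active factors. SREBP-2, from SREBF2, acts mainly on sterol genes, and SREBP-1, from SREBF1, mainly on fatty acid genes. LXR nuclear receptors act in the opposite state: when sterols are abundant they activate the efflux pump gene ABCA1 and also SREBF1. ALK-positive anaplastic large cell lymphoma lines are known for lacking squalene epoxidase and for depending on cholesterol taken up from outside.

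Library totals ranged from 26217590 to 45885630 reads. Of 8 lymphoma markers, 6 had an RPKM (reads scaled to gene length and library total) of at least 0.5 in each library, among them TNFRSF8, which encodes CD30, at 4.97 to 12.3. ALK, at 0.0966 to 0.137, and CCND3, at 0.226 to 0.491, did not. The summed RPKM of the 8 was 78.1 with DMSO, 89.3 with SM-164, 44.9 on CHO and 59.3 on CD30L+ CHO. None of 10 stromal markers reached 0.5 in any library, and their summed RPKM was 0.267 with DMSO, 0.171 with SM-164, 0.0552 on CHO and 0.0268 on CD30L+ CHO, with DCN at 0 in all 4. The same held for 5 epithelial markers, whose summed RPKM was 0.299 to 0.508. Of 6 markers of other blood cells 2 or 3 reached it, with MS4A1 at 0 in all libraries and NKG7, a gene of cytotoxic cells, at 0.796 to 3.02. Hamster RNA whose reads also align to the human genome cannot be separated in these files, and its part in the values on CHO layers was not tested.

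SQLE, which encodes squalene epoxidase and so the first oxygenation on the way from squalene to sterols, was nearly silent. It had 3 reads with DMSO, 2 with SM-164, 7 on CHO and 1 on CD30L+ CHO, an RPKM of 0.00406, 0.0032, 0.00641 and 0.000922. All 4 libraries thus lay at a few reads, and no difference between them was detectable at this depth. The enzymes on either side of this step were transcribed. FDFT1, which makes squalene from farnesyl pyrophosphate, had an RPKM of 3.00, 2.96, 3.95 and 3.39 in the same order. LSS, which cyclises the product of SQLE to lanosterol, had 0.662, 0.514, 0.629 and 0.406.

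The silence of SQLE did not extend to the whole neighbourhood. SQLE lies on chromosome 8 from 126010720 to 126034525 on the plus strand (hg19). KIAA0196, the next gene, on the opposite strand from 126036503 to 126104061, had an RPKM of 1.37 with DMSO, 1.29 with SM-164, 1.2 on CHO and 1.16 on CD30L+ CHO. NSMCE2, beyond it, had 1.35, 1.42, 1.03 and 1.19. On the other side the closest entry, ZNF572, was at 0 in all 4 libraries, and MTSS1, farther off, was at 0.00109 to 0.00692. Reads on the strand opposite to SQLE numbered 36.4, 26.3, 158 and 138, more than the sense reads in every library. KIAA0196 is transcribed on that strand toward SQLE. Whether these reads continue from it was not tested.

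ELOVL6, which extends palmitate to stearate, was the other near-silent member, with 8, 10, 33 and 16 reads over 149592 counted bases. Between 23 and 26 of the 32 genes had an RPKM of at least 0.5 in a given library, and 21 had it in all 4. HMGCS1, which makes the precursor of mevalonate, INSIG1 and SCD, the stearoyl-CoA desaturase, were the 3 most transcribed members with DMSO and with SM-164. Their RPKM with DMSO was 8.45, 12.04 and 10.8. On both CHO layers CYP51A1, the lanosterol demethylase, stood above SCD. HMGCS1 ranked at place 433 of 22798 symbols with DMSO, 461 with SM-164, 72 on CHO and 45 on CD30L+ CHO. INSIG1 was at least 7.64 times as high as INSIG2 per length in each library, and SREBF2 was 3.06, 3.00, 3.00 and 5.14 times as high as SREBF1.

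**Figure D1:**
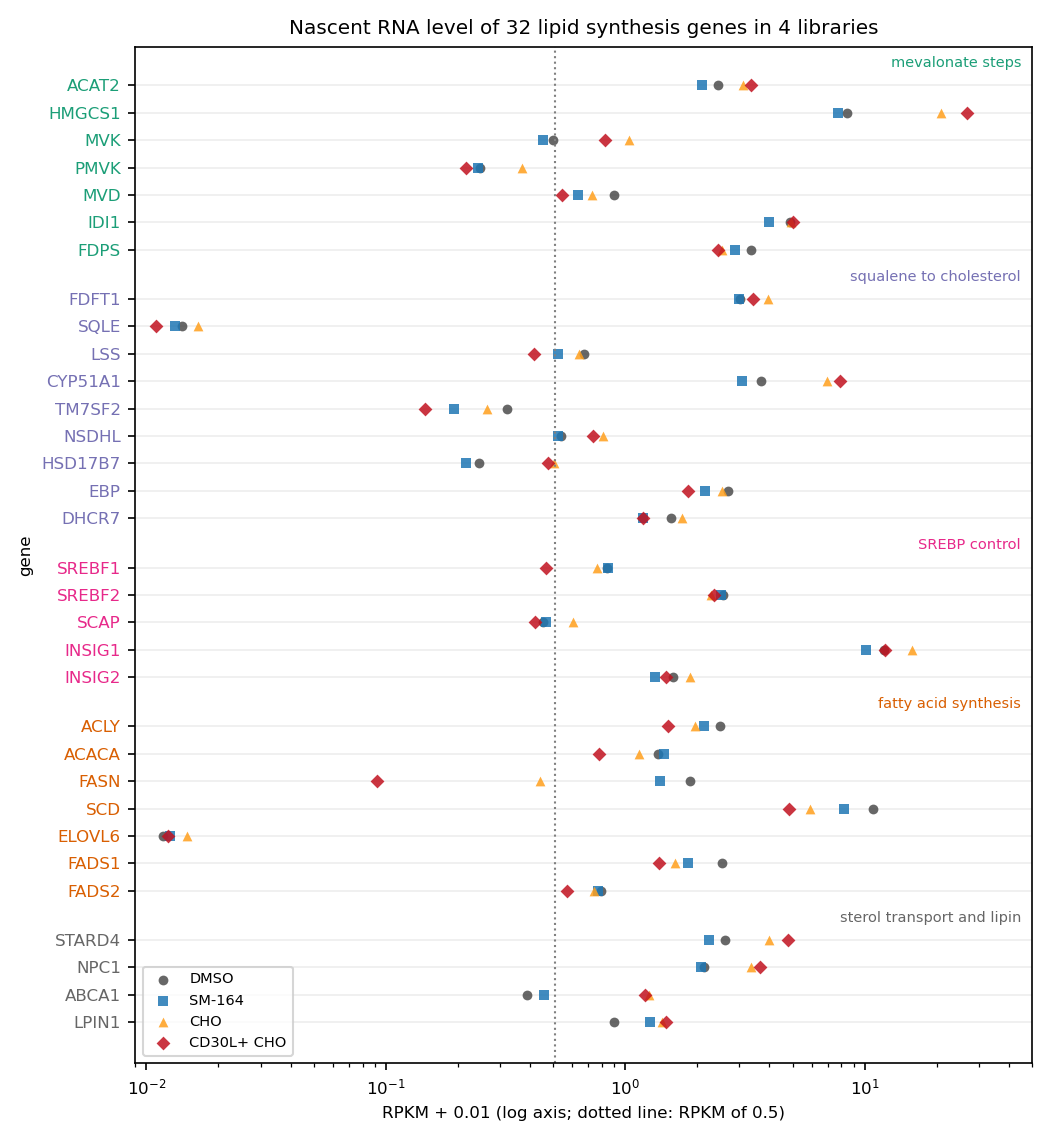
RPKM of the 32 genes in the 4 libraries, with 0.01 added so that values near 0 can be drawn on the log axis; each point is 1 library and the dotted line marks an RPKM of 0.5. SQLE and ELOVL6 lie at the left edge in all 4 libraries, and FASN spreads from 1.85 with DMSO to 0.0823 on CD30L+ CHO.

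Promoter sequences were looked at because sterol genes share known control elements. RefSeq windows (GRCh38.p14) of 300 bases, from 250 before to 50 after an annotated start, were matched for 28 of the 32 members; ACAT2, FASN, FDFT1 and SQLE had no entry. A gene with several entries was counted as holding a motif if any entry held it, and both strands were read. The string TCACNCCAC, a strict form of the SREBP site, occurred in 1 of 28 members, SREBF2, against 1.39% of 27305 symbols.  The NF-Y box CCAAT, whose factor acts with SREBPs at sterol promoters, occurred in 18 of 28 members, against 39.7% of all symbols and 44.2% of 6045 symbols that were transcribed enough to be tested. It was present in 5 of 6 mevalonate genes and 6 of 7 genes from squalene to cholesterol, and in 4 of 6 fatty acid genes. It was less frequent in the other groups, with 2 of 5 SREBP control genes and 1 of 4 genes of sterol transport and lipin. The GC box GGGCGG occurred in 27 of 28, against 76.4% of tested symbols, and the E-box CACGTG in 4 of 28, against 12.9%. A match is a run of letters and not a shown binding site. A promoter without a match may still hold a site that differs from the string or lies outside the window.

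The stretches below show SREBF2, the member with the match to TCACNCCAC, and 3 sterol-responsive genes whose levels varied here: HMGCS1, STARD4 and INSIG1. Capitals mark the match to TCACNCCAC, the NF-Y box, which reads ATTGG where it lies on the other strand, and the E-box. All bases lie upstream of the start of the entry used. HMGCS1 had 2 entries, and the one shown was picked for holding the NF-Y box.
SREBF2 (chr22:41832935-41833034, plus strand): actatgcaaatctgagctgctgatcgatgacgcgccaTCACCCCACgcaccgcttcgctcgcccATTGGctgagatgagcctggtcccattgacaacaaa
HMGCS1 (chr5:43313483-43313582, minus strand): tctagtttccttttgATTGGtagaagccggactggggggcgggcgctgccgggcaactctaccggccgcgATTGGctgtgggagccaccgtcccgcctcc
STARD4 (chr5:111512606-111512705, minus strand): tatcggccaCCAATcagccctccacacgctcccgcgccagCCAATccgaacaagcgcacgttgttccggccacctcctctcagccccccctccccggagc
INSIG1 (chr7:155297698-155297837, plus strand): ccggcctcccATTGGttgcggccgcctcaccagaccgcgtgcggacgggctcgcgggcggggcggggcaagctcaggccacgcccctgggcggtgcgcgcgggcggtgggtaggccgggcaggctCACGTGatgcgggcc
In SREBF2 the match to TCACNCCAC lies 133 to 125 bases before the start and the NF-Y box 106 to 102 bases before it. HMGCS1 and STARD4 each hold 2 NF-Y boxes in the stretch, and INSIG1 holds an NF-Y box and, 55 to 50 bases before its start, the E-box.

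The first comparison, SM-164 against DMSO, asked how a synthetic IAP antagonist moved these genes. Most enzyme genes were slightly lower with SM-164, and no tested member differed by 1.5-fold. A member was tested when the mean RPKM of both libraries was at least 0.5, and its ratio was log2 of RPKM plus 0.25. By this rule 24 members were tested. None reached 1.5-fold in either direction, where 0.787% of all 7881 tested genes were higher and 1.1% lower, or 2-fold, where 0.19% were higher and 0.0634% lower. The log2 ratio was below 0 in 21 of the 24 and in 63.3% of all genes, and above 0 in 3 and in 36.7%. The median was -0.21 against -0.04 for all genes. In bulk RNA, fewer cells of a type and less RNA per cell cannot be told apart. With 1 library per condition no difference has a replicate check, and the intervals below are exact 95% intervals for counting error only.

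The 6 tested fatty acid genes had a median log2 ratio of -0.28 with SM-164, close to the -0.25 of the 6 tested genes from squalene onward, and ranged widely. FADS1, the delta-5 desaturase, had an RPKM of 2.52 with DMSO and 1.82 with SM-164, 0.724 of the control level (0.663 to 0.79). SCD went from 10.8 to 8.15, a ratio of 0.753 (0.722 to 0.784). FASN, the synthase that builds palmitate, went from 1.85 to 1.39, a ratio of 0.749 (0.682 to 0.823). These 3 stood apart from ACACA, the carboxylase that commits acetyl-CoA to fatty acids, which had 1.36 and 1.44, a ratio of 1.06 (1.03 to 1.08). ACLY, which supplies cytosolic acetyl-CoA, was between them at 0.857 (0.816 to 0.899), and FADS2, the delta-6 desaturase, at 0.965 (0.876 to 1.06).

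All 11 tested sterol enzyme genes were below 0 with SM-164, but by small amounts, and FDFT1 and NSDHL, a sterol dehydrogenase, were at 0.02 and 0.01 once the median of all genes was set to 0. In the mevalonate steps the lowest was MVD, the decarboxylase that gives isopentenyl pyrophosphate, with 0.89 and 0.627 (ratio 0.703, 0.582 to 0.847). HMGCS1 was the highest, with 8.45 and 7.72 (0.914, 0.88 to 0.949). IDI1, FDPS and ACAT2, which act before and after MVD, lay between 0.813 and 0.861. From squalene onward DHCR7, which carries out a late reduction on the way to cholesterol, was lowest at 0.763 (0.675 to 0.862), and FDFT1 highest at 0.987 (0.939 to 1.04).

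Both SREBP genes were nearly level with SM-164. SREBF1 had an RPKM of 0.833 with DMSO and 0.837 with SM-164, and SREBF2 had 2.55 and 2.51, a ratio of 0.983 (0.946 to 1.02). SCAP, not tested because of its low level, had 0.443 and 0.458. Both INSIG genes were lower: INSIG1 had 12.04 and 10.1 (0.841, 0.804 to 0.88), and INSIG2 had 1.58 and 1.32 (0.837, 0.761 to 0.92). The member farthest in the other direction was LPIN1, a phosphatidate phosphatase of glycerolipid synthesis that SREBPs are known to activate, had 0.884 and 1.26, a ratio of 1.43 (1.35 to 1.51). The sterol transport genes NPC1 and STARD4 had ratios of 0.972 and 0.856. ABCA1, not tested because of its low level, had 0.378 and 0.447, a ratio of 1.18 (1.10 to 1.26).

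**Figure D2:**
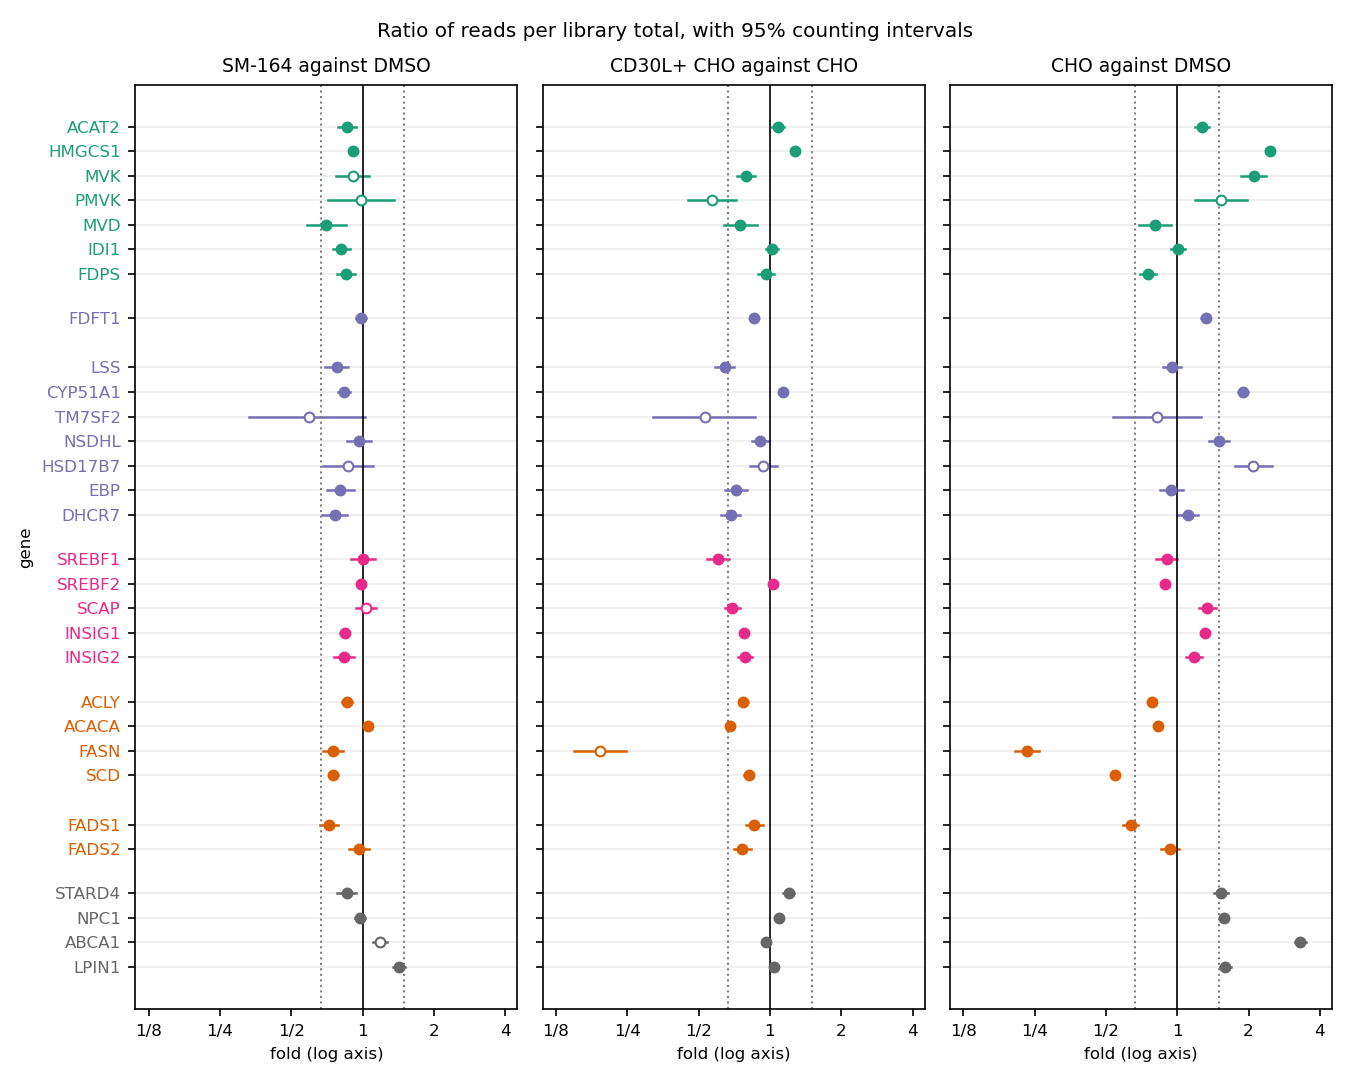
Fold of each gene in the 3 comparisons on a log axis, from reads per library total, with bars for exact 95% counting intervals; filled points were tested, open points fell below the level minimum, and dotted lines mark 1.5-fold either way. SQLE and ELOVL6 are left out because of few reads; LPIN1 stands highest with SM-164 at 1.43, and FASN is at 0.193 on CD30L+ CHO against CHO.

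The second comparison, CD30L+ CHO against CHO, asked what the ligand of CD30 added to contact with CHO cells. A few sterol genes were modestly higher, while fatty acid genes and SREBF1 were lower, and again no tested member passed 1.5-fold. That count is on the scale with 0.25 added; in plain read ratios SREBF1 and LSS were past it, as given below. The 26 tested members stood against 7661 genes, of which 2.62% were 1.5-fold higher and 4.99% lower, and 0.979% were 2-fold higher and 0.731% lower. The log2 ratio was above 0 in 8 of the 26 and in 28% of all genes, and below 0 in 18 and in 72%. The median was -0.23, against -0.12 for all genes.

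HMGCS1 was the highest tested member, with an RPKM of 20.8 on CHO and 26.6 on CD30L+ CHO, 1.28-fold (1.26 to 1.3). STARD4, a carrier of cholesterol between membranes, had 3.99 and 4.78, 1.2-fold (1.14 to 1.26). CYP51A1 had 6.97 and 7.91, 1.14-fold (1.1 to 1.17). ACAT2, which joins acetyl-CoA units ahead of HMGCS1, was at 1.08 (1.02 to 1.14). Most other sterol enzymes were level or lower: IDI1 was at 1.02 (0.96 to 1.09), DHCR7 at 0.682 (0.621 to 0.749), EBP, a sterol isomerase, at 0.72 (0.646 to 0.802), MVD at 0.749 (0.638 to 0.879) and LSS at 0.646 (0.589 to 0.709). The members of one pathway thus did not share 1 direction. All 5 tested fatty acid genes were below 0, from FADS1 at 0.861 (0.793 to 0.934) to ACACA, with 1.13 and 0.764, at 0.679 (0.663 to 0.695).

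FASN was the member farthest from its control. It had 392 reads on CHO and 74.6 on CD30L+ CHO, an RPKM of 0.43 and 0.0823, and a ratio of 0.193 (0.149 to 0.247). It was below the level minimum in this comparison and is therefore outside the counts above; on the scale with 0.25 added its log2 ratio was -1.03. Its RPKM was 1.85 with DMSO and 1.39 with SM-164, so its 2 values on CHO layers lay below both values without them. FASN lies on chromosome 17 from 80036214 to 80056106 (hg19).

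Several genes beside FASN were low in the same libraries. DUS1L, the next gene on one side, had an RPKM of 0.707 with DMSO, 0.481 with SM-164, 0.256 on CHO and 0.0637 on CD30L+ CHO. DCXR, farther off on that side, had 1.72, 1.26, 0.576 and 0.169, and SLC16A3, on the other side, 1.63, 1.68, 0.728 and 0.254. Of the 5 neighbours with an RPKM of at least 0.5 in some library, all 5 were below 0 in CD30L+ CHO against CHO. So were 72% of all genes tested. Their log2 ratios ran from -0.98 to -0.19, with a median of -0.69. CCDC57, the closest gene and below that level, did not share this: it had 0.278, 0.29, 0.19 and 0.208. CSNK1D, farther out, had 1.96, 1.94, 2.53 and 2.18. What the genes of this stretch share was not tested. Around HMGCS1 the 8 neighbours at that level were all below 0 too, from -0.72 to -0.09 with a median of -0.28. None of the 8 matched HMGCS1 itself, which had 0.35. The neighbourhoods were looked at after these values were seen.

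**Figure D3:**
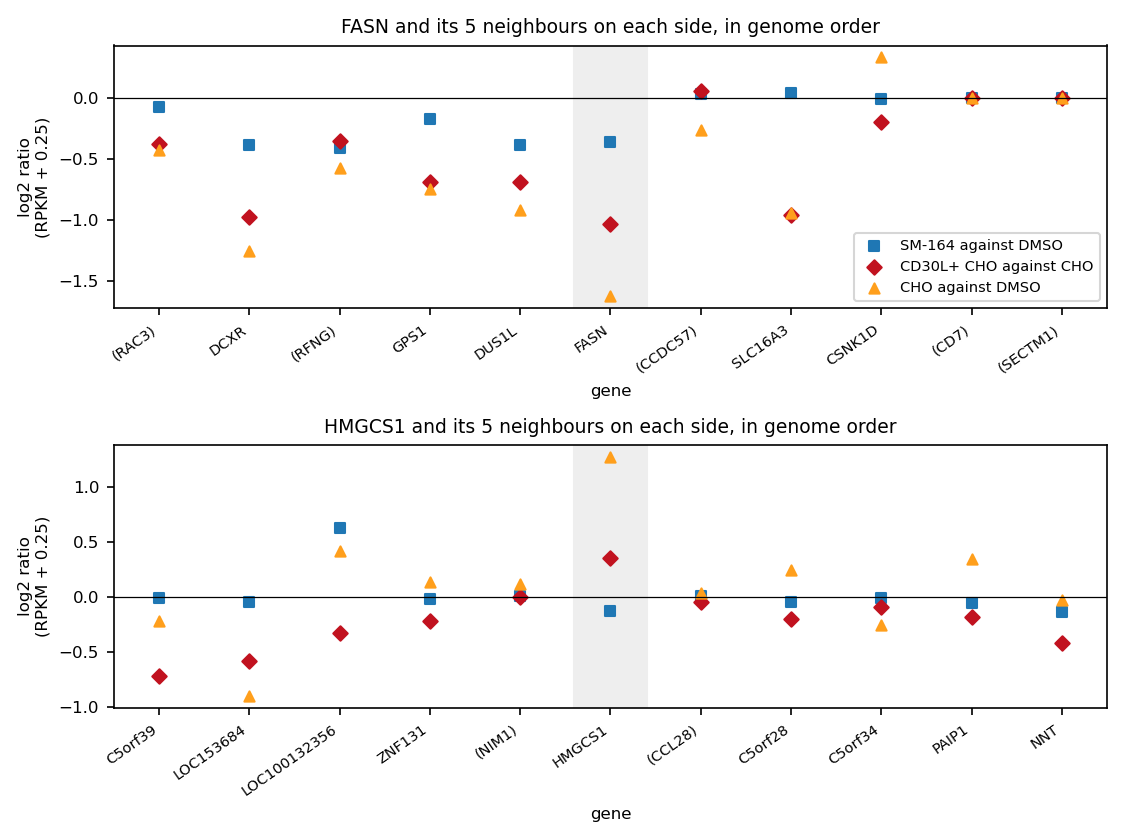
Log2 ratio (RPKM plus 0.25) of FASN and HMGCS1 (shaded) and of the 5 genes on each side in genome order; colours and shapes are the 3 comparisons, and names in parentheses had an RPKM below 0.5 in all 4 libraries. DCXR, GPS1, DUS1L and SLC16A3 lie below 0 with FASN on CD30L+ CHO against CHO, whereas HMGCS1 lies above its neighbours.

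Among the control genes on CD30L+ CHO, the 2 SREBP genes differed. SREBF1 had an RPKM of 0.753 on CHO and 0.455 on CD30L+ CHO, a ratio of 0.604 (0.541 to 0.674) and a log2 ratio of -0.51, the lowest of all tested members. SREBF1, and likewise LSS and SCAP, lay under an RPKM of 0.5 on CD30L+ CHO and were tested only through the value on CHO. Several genes around SREBF1 were also below 0 in this comparison, as were 72% of all genes. On one side RASD1 was at a log2 ratio of -0.81, RAI1 at -0.40 and MED9 at -0.30. On the other side TOM1L2, the next gene, was at -0.11, and ATPAF2 and DRG2, farther off, at -0.28 and -0.32. Of the 10 neighbours only RASD1 and MED9 had an RPKM of at least 0.5 in some library. SREBF2 had 2.26 and 2.34, a ratio of 1.03 (1.00 to 1.07). Their intervals do not overlap, but no replicate tests the difference. SCAP was at 0.694 (0.644 to 0.748), INSIG1, with 15.7 and 12.2, at 0.776 (0.752 to 0.801), and INSIG2 at 0.787 (0.734 to 0.843). ABCA1, with 1.25 and 1.2, was at 0.96 (0.931 to 0.99), NPC1, the lysosomal cholesterol exporter, at 1.09 (1.06 to 1.12), and LPIN1 at 1.04 (0.999 to 1.08).

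Across the 23 members tested in both comparisons, which share no library, 13 were below 0 in both and 7 were below 0 with SM-164 but above 0 on CD30L+ CHO. For all 7210 genes tested in both, these shares were 50.6% and 11.4%. Those 7 were HMGCS1, CYP51A1, STARD4, ACAT2, IDI1, NPC1 and SREBF2. NPC1 and SREBF2 with SM-164, and IDI1 on CD30L+ CHO, had intervals that span 1. NPC1 and SREBF2 were above 0 with SM-164 when ratios were centred on the median gene or scaled by TMM, and so leave this class. FDPS joins it under the same settings, with a centred log2 ratio of 0.068 on CD30L+ CHO and -0.18 with SM-164. The 11.4% of all genes applies to ratios without such scaling, and the share with it was not computed. The treatments and base levels differed, and no test of the difference was possible with 1 library each.

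The third comparison, CHO against DMSO, sets the 2 control libraries side by side. It shares DMSO with the first comparison and CHO with the second, and co-culture, medium, handling and experiment cannot be told apart in it. The summed lymphoma markers also differed, at 78.1 with DMSO and 44.9 on CHO, as did TNFRSF8, at 9.59 and 4.97; their part in the result was not tested. Here the members differed most. All 6 tested fatty acid genes were lower on CHO and all 4 tested genes of sterol transport and lipin were higher, while sterol synthesis genes went both ways, with 4 of 6 mevalonate genes and 4 of 6 genes from squalene onward above 0. Among 27 tested members, 5 were higher by 1.5-fold or more, as were 7.07% of 8081 genes, and 2 were lower by as much, as were 10.7%. At 2-fold, 2 were higher and 1 lower, against 0.879% and 4.52%. The log2 ratio was above 0 in 15, against 56.2%, and below 0 in 12, against 43.8%. The median was 0.13, against 0.06 for all genes.

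The 5 higher members were HMGCS1, MVK, CYP51A1, NPC1 and ABCA1. HMGCS1 had 8.45 with DMSO and 20.8 on CHO, 2.46-fold (2.39 to 2.53), and CYP51A1 had 3.67 and 6.97, 1.9-fold (1.81 to 1.99). MVK, the mevalonate kinase, had 0.488 and 1.03, 2.1-fold (1.87 to 2.38), and NPC1 1.58-fold (1.52 to 1.64). ABCA1, which exports cholesterol, had 0.378 and 1.25, 3.31-fold (3.14 to 3.49), and passed the level minimum only through its value on CHO. MVK too was under 0.5 with DMSO and passed only through CHO. Other sterol enzymes were lower on CHO: FDPS, which makes farnesyl pyrophosphate, had 3.36 and 2.53, a ratio of 0.752 (0.696 to 0.812), and MVD was at 0.804 (0.689 to 0.938). LSS was at 0.95 (0.869 to 1.04) and EBP at 0.945 (0.848 to 1.05). SREBF1 was at 0.904 (0.817 to 1.002) with a log2 ratio of -0.11. STARD4 (log2 ratio 0.57) and LPIN1 (0.55) lay just inside 1.5-fold on the scale with 0.25 added.

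Among the fatty acid genes FASN had 1.85 and 0.43, a ratio of 0.232 (0.206 to 0.26), and passed the minimum only through DMSO. SCD had 10.8 and 5.9, a ratio of 0.545 (0.525 to 0.566), and FADS1 had 2.52 and 1.6, at 0.635 (0.588 to 0.686). ACLY was at 0.782, ACACA at 0.83 and FADS2 at 0.932. The summed RPKM of the 7 mevalonate genes was 20.7 with DMSO, 17.9 with SM-164, 33.4 on CHO and 38.99 on CD30L+ CHO, while that of the 7 fatty acid genes was 19.8, 15.7, 11.7 and 9.08. HMGCS1 carries much of the first sum and SCD of the second, and the RPKM of HMGCS1 was 0.78, 0.948, 3.52 and 5.55 times that of SCD.

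Gene length moved with all 3 comparisons. In SM-164 against DMSO the median log2 ratio of all genes ran from -0.27 in the shortest of 10 length classes to 0.03 in the longest. On CD30L+ CHO it ran from -0.27 to -0.04, and in CHO against DMSO it was -0.54 in the shortest class and 0.2 in the sixth. With the running median over genes of like length subtracted, the members' median was -0.13, -0.11 and 0.03. LPIN1 with SM-164 was then at 0.40, SREBF1 on CD30L+ CHO at -0.41, HMGCS1 in CHO against DMSO at 1.14 and FASN at -1.79. Other values on CD30L+ CHO depended more on length. The median of the tested mevalonate genes went from -0.01 to 0.16, and that of the fatty acid genes from -0.28 to -0.17. FADS1 was then at -0.02 and IDI1 at 0.22. Medians were then -0.16 from squalene to cholesterol, -0.20 for SREBP control and 0.15 for sterol transport and lipin.

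**Figure D4:**
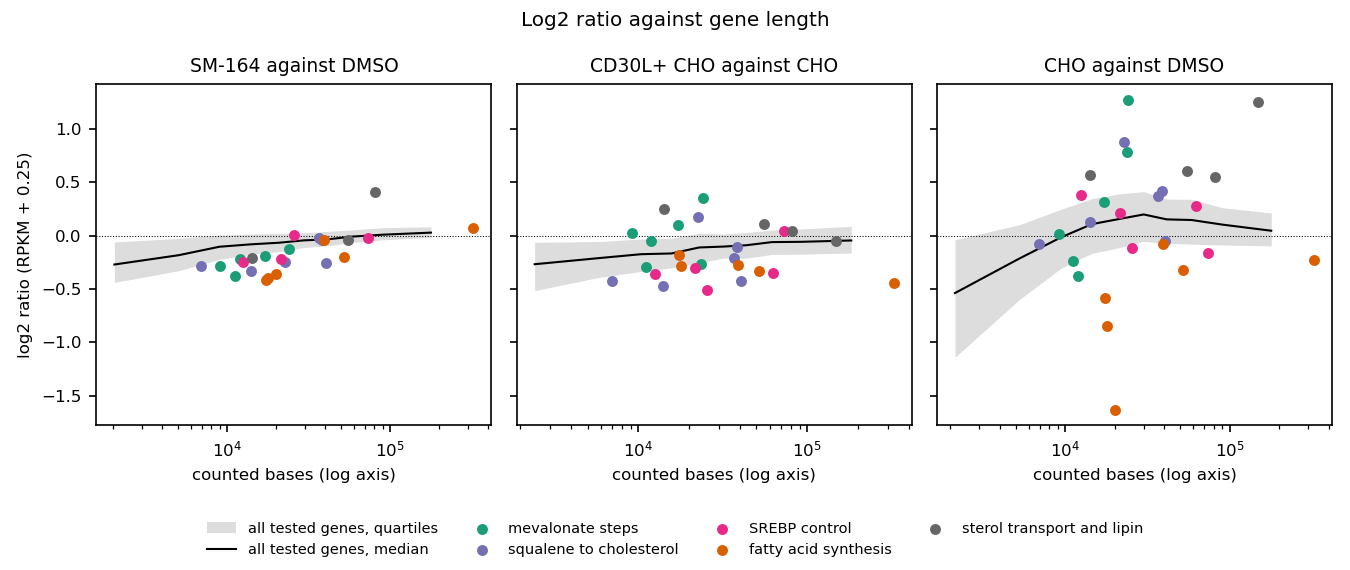
Log2 ratio (RPKM plus 0.25) of tested members against counted bases on a log axis, coloured by role; the line and band are the median and quartiles of all tested genes in 10 length classes. The all-gene median is -0.27 in the shortest class with SM-164, and FASN at -1.63 and HMGCS1 at 1.27 lie far outside the band in CHO against DMSO.

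A wider list of 46 other genes of these pathways was counted in the same way. With SM-164, 31 were tested, 0 were 1.5-fold higher (0.787% of all genes) and 1 was lower (1.1%): SLC25A1, the mitochondrial citrate carrier, with an RPKM of 1.09 and 0.642 and a ratio of 0.586 (0.415 to 0.82). On CD30L+ CHO, 30 were tested, 0 were lower (4.99% of all genes) and 1 was higher (2.62%). This was ACSL1, a long-chain acyl-CoA synthetase, with 3.61 and 6.09, 1.69-fold (1.65 to 1.73). The count of lower genes is on the log2 scale, which adds a constant to each RPKM. In plain read ratios TECR and ELOVL1 were past 1.5-fold lower. TECR was at 0.569 (0.518 to 0.625) and ELOVL1 at 0.618 (0.52 to 0.735), with log2 ratios of -0.561 and -0.581. TECR passed the level minimum only through its value on CHO. In CHO against DMSO, 33 were tested, 3 were higher (7.07% of all genes) and 4 lower (10.7%), and nothing is read from these counts. MSMO1, the methylsterol oxidase that acts after CYP51A1, had 3.6 and 7.21, 2.00-fold (1.9 to 2.12), and AGPAT1 and LPIN2, both of glycerolipid synthesis, had log2 ratios of 1.24 and 0.73. The 4 lower genes were SLC25A1 at -1.19, MID1IP1, an activator of acetyl-CoA carboxylase, at -0.82, NR1H2, which encodes an LXR, at -0.80, and LPCAT3, a lysophospholipid acyltransferase, at -0.59. AGPAT1 passed the level minimum only through CHO, and SLC25A1, MID1IP1 and NR1H2 only through DMSO. The genes named from CHO against DMSO, and TECR and ELOVL1, were chosen after their values were seen.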

How the data were processed

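For each library the authors deposited an estimated count of reads in each gene (introns included), a signal, which is that count per counted base, and an RPKM. The submitters' processing notes name build hg19 and these tools: TopHat 1.4.1, Bowtie 0.12.8, CASAVA 1.8.2, bedtools 2.16.2. No source used here names the annotation. Library totals followed from the deposited RPKM and signal: DMSO 31030477 reads, SM-164 26217590, CHO 45885630, CD30L+ CHO 45535365. A gene with 0 reads may hold up to 3.

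Sense features were used, 1 row per symbol. Log2 ratios were taken on the deposited RPKM plus 0.25. Genes were tested if their counted length reached 300 bases and their RPKM averaged 0.5 or more, and called at 1.5-fold. Folds are ratios of rounded estimated counts per library total, with exact conditional (Clopper-Pearson) 95% intervals. These cover counting error only, since each condition has 1 library. Reads carried no molecular identifiers. With 1 library per condition no p-value was computed. Members and lists were chosen with earlier results of these data known. The rule for named genes took the highest and lowest tested member of 5 role groups in the first 2 comparisons, any past 1.5-fold, and the 5 SREBP control genes; SQLE, ELOVL6, FASN and the others outside it were chosen after their values were seen. Alternatives were other pseudocounts, minimums, thresholds and scalings, and a length correction. Versions were R 4.3.3, edgeR 4.0.16 (TMM scaling only), matplotlib 3.10.9, scipy 1.17.1, pandas 2.3.3, numpy 2.4.6 and Python 3.11.15. The procedure was tested on simulated data that held counting error only, so that test cannot show how it behaves with variation between libraries.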

Additional observations from a re-analysis of the deposited data

How the results depend on the processing

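No paired analysis was possible because each condition has 1 library. On CD30L+ CHO the members' median of -0.23 was -0.048 with a mean RPKM of at least 1, -0.12 with ratios centred on the median gene, -0.12 under TMM scaling and -0.11 with the length trend subtracted, and 1 member was 1.5-fold lower with a pseudocount of 0.1 (SREBF1) or with no minimum (FASN). TMM scaling moved the median of all genes by 0.11 in this comparison. In CHO against DMSO the 5 members at least 1.5-fold higher became 3 with a pseudocount of 1, 3 with a mean RPKM of at least 1 and 2 at 2-fold, and the 2 lower became 1 at 2-fold. The other medians and counts kept their direction, and the counts stayed within 1.5 times. With SM-164, 21 of 24 members were below 0, and 16 of 24 were with ratios so centred. Changed minimums of level or length alter only which genes are tested, so single values cannot move under them. They are counted all the same among 595 single values, of which 113 moved beyond their counting interval. Among those past 1.5-fold 0 changed sign, but only CHO against DMSO had any such values. Smaller values did change sign: with ratios so centred, 5 of 24 members did with SM-164, 3 of 26 on CD30L+ CHO and 1 of 27 in CHO against DMSO. SQLE, ELOVL6 and TM7SF2 have too few reads for small differences.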

Other observations

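Antisense features were present for all 32 members, and 2 had a mean RPKM of at least 0.5 over a treated library and its control. The feature opposite FADS1 had an RPKM of 0.624 with DMSO, 0.626 with SM-164, 0.929 on CHO and 0.894 on CD30L+ CHO. The feature opposite ACAT2 had 0.215, 0.209, 1.08 and 0.937. Neither was 1.5-fold higher in a treated library than in its control. Both were higher in the 2 libraries on CHO layers than in the 2 without them, while the sense level of FADS1 was lower there and that of ACAT2 higher.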
